A study of Mus musculus with 10 samples.

Results

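The enzymes and binding proteins that place, read and remove DNA methylation, and the Polycomb repressive complex 2 (PRC2), were described as 10 genes across the 3 groups of a mouse cell conversion study. They were the methyltransferases Dnmt1, Dnmt3a and Dnmt3b, the cofactor Dnmt3l, the reader Uhrf1, the dioxygenases Tet1, Tet2 and Tet3, and the PRC2 subunits Ezh2 and Suz12. Every array feature named for 1 of these genes was taken, which gave 19 of 62976 features. Dnmt3b, Tet1, Tet2 and Tet3 had 3 features each, Uhrf1 had 2, and the remaining genes had 1. All 19 features lay above the 40th percentile of their array on at least 2 arrays, the filter used for testing: the dimmer Uhrf1 feature did so on 7 of 10 arrays and the others on all 10. Each gene is represented by its brightest feature unless another is named, and all levels and differences are on the log2 scale of the deposited array intensities.

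The cells all came from a congenic R26-M2rtTA mouse strain, so the controls carry the doxycycline-controlled transactivator as well. Induced embryonic Sertoli-like cells (ieSCs) carried transgenes for Nr5a1, Wt1, Dmrt1, Gata4 and Sox9 and were made either from female tail tip fibroblasts (TTFs, 4 arrays) or from mouse embryonic fibroblasts (MEFs, 4 arrays); unconverted MEFs without a transgene (2 arrays) were the control, and all were kept without doxycycline for 2 weeks in F12/DMEM. The series asked how ieSC expression differs from that of MEFs. No unconverted TTF array was analysed here, so TTF-derived ieSCs are set against fibroblasts of another source. The sample names give no sex for the MEFs, so the sex of the cells may differ between the origins. Arrays come in pairs that share a name (names 1 and 2 in each ieSC group, and 1 MEF name), and are called 1a, 1b, 2a, 2b, and a and b for MEFs. The sources used here do not say whether arrays of a name were separate cultures or whether a name is a clone or a pool, so the spread behind each p-value is that of arrays and names and may be technical.

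Methyl groups on the cytosine of CpG sites are copied onto the new DNA strand after replication by Dnmt1, which Uhrf1 brings to sites methylated on the old strand only, while Dnmt3a and Dnmt3b set new methylation and Dnmt3l, which has no catalytic activity of its own, assists them in germ cells and embryos. Tet enzymes oxidise methylcytosine, the opening step of active demethylation, with base excision repair completing it. PRC2 methylates lysine 27 of histone H3 through Ezh2, and Suz12 holds the complex together. Genes marked in this way are kept silent.

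Of 9 fibroblast markers, 9 were lower in all ieSCs than in MEFs (23.6% of all genes). Their mean level was 7.21 to 8.16 on TTF-derived arrays and 6.75 to 7.23 on MEF-derived arrays, against 14.84 on each MEF array. The sizes were uneven: Col1a1 differed by -0.46 in all ieSCs and did not pass in MEF-derived ieSCs (-0.31, limma adjusted p = 0.0976). In TTF-derived ieSCs Prrx1 was at 12.43 and 12.45 in name 1 but 8.22 and 8.17 in name 2. Of 13 Sertoli markers, 11 were tested, and 6 were higher in all ieSCs (Dhh, Wt1, Gatm, Tesc, Ptgds and Sox8). The 5 that were lower included the transgene factors Sox9, Gata4, Nr5a1 and Dmrt1. Of all genes, 25.9% were higher and 23.6% lower. Amh and Fshr lay below the filter in every group. Ptgds, Sox8, Gata4, Nr5a1, Dmrt1, Amh and Fshr were named after their values were seen. The 9 macrophage markers averaged 5.94 to 5.98 on TTF-derived and 5.97 to 6.26 on MEF-derived arrays, against 12.03 and 12.05 on the MEF arrays. All 9 were lower in ieSCs (23.6% of all genes). Csf1r was lower but not dim, at 10.52 in TTF-derived and 10.98 in MEF-derived ieSCs against 14.73 in MEFs. Its features differed from MEFs by -3.98 to -0.38 in all ieSCs. The part of macrophage transcripts in the differences from MEFs below was not tested.

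Some members differed between the origins of the ieSCs and some between all ieSCs and MEFs. Uhrf1, Tet3 and Ezh2 passed in both comparisons, Tet3 by origin on its brightest feature only. Uhrf1, Dnmt1, Dnmt3a, Dnmt3b, Ezh2 and Suz12 were higher in TTF-derived than in MEF-derived ieSCs, and Tet1 was lower than MEFs in both. The promoters of these 7 genes are shown for that reason: RefSeq sequence (GRCm38.p6), 5′ to 3′, the 250 bases before the outermost annotated start. Uhrf1, Dnmt1 and Dnmt3a have other annotated starts further inside the gene. Which start these cells used was not measured, so the window shown need not be the promoter in use. Capitals mark the CCAAT box (CCAAT, read as ATTGG from the other strand) and the E2F letters TTTCCCGC or TTTGGCGC, both searched on both strands. The windows are chr17:56303087-56303336 (plus strand) for Uhrf1, chr9:20959889-20960138 (minus) for Dnmt1, chr12:3806730-3806979 (plus) for Dnmt3a, chr2:153649199-153649448 (plus) for Dnmt3b, chr6:47595031-47595280 (minus) for Ezh2, chr11:79992856-79993105 (plus) for Suz12 and chr10:62887325-62887574 (minus) for Tet1.
Uhrf1: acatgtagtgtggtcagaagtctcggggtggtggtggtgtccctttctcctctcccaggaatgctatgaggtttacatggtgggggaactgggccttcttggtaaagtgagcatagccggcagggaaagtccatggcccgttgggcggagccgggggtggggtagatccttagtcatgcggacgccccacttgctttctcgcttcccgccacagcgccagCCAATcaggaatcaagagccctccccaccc
Dnmt1: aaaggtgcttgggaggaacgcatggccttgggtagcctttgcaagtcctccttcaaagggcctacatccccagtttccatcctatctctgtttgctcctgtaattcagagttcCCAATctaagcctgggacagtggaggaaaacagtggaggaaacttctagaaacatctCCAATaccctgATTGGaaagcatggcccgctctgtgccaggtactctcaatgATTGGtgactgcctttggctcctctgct
Dnmt3a: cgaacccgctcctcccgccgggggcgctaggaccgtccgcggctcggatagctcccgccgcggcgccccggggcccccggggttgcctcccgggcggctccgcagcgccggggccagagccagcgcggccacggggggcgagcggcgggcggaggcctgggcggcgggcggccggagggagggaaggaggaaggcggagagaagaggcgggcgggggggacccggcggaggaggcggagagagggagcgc
Dnmt3b: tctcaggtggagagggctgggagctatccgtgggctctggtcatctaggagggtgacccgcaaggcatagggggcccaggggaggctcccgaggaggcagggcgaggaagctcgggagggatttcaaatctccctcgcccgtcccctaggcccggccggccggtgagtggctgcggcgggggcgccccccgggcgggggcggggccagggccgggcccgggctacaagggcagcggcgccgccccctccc
Ezh2: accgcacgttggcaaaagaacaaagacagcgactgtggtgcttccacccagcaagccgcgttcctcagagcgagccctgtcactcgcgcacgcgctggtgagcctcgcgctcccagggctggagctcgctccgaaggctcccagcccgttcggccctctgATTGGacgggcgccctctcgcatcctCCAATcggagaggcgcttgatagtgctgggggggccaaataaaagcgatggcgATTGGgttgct
Suz12: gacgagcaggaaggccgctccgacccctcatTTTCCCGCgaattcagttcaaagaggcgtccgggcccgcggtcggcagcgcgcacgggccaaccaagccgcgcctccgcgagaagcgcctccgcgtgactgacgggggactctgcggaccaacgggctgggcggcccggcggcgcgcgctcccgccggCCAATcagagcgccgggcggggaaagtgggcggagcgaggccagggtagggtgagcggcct
Tet1: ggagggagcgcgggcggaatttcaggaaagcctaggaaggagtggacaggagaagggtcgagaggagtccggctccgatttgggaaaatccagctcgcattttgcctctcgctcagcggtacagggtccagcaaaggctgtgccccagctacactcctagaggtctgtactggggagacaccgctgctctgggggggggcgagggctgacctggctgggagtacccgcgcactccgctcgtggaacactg

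All 10 members matched a RefSeq promoter window, 17 windows in all. CCAAT letters stood in a window of 5 members (Uhrf1, Dnmt1, Ezh2, Suz12 and Tet3) and in none of Dnmt3a, Dnmt3b, Dnmt3l, Tet1 or Tet2, and 37.5% of 27025 genes with a window, or 33.8% of 32851 windows, hold them. The E2F letters were found in the Suz12 window only, and 1.3% of all windows hold them. Only these exact letters were searched, so other forms of an E2F site were not counted. They stood in 4 of 25 genes with a window from the S phase and mitosis list below, against 1.51% of all genes. In no window did matches of the 2 motifs overlap. The Uhrf1 window above has 10 CpG and the next Uhrf1 start has 30, against a median of 6 over all windows, while Ezh2 has 23, Suz12 37 and Tet1 15. The Dnmt1 window above has 2, and the other Dnmt1 starts have 7 and 26. Among the other members, Tet2 had the most CpG (51, with fewer in 99.9% of all windows), Dnmt3a had 38, 40 and 15 in its 3 windows, Dnmt3b had 21, and Dnmt3l had 5, 4 and 3. These are descriptions of letters: no methylation and no factor binding was measured in this series.

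Uhrf1, the protein that recruits Dnmt1 to replicated DNA, had the widest range among the members. It was at 12.34, 12.40, 12.87 and 12.56 in TTF-derived ieSCs (1a, 1b, 2a, 2b), at 8.33, 8.36, 9.19 and 9.06 in MEF-derived ieSCs, and at 12.15 and 12.06 in MEFs. All TTF-derived arrays lay above both MEF arrays, and all MEF-derived arrays lay far below both. TTF-derived ieSCs exceeded MEF-derived ieSCs by 3.81 ± 0.24 (SE), or 13.99-fold (limma adjusted p = 4.31e-06), and MEF-derived ieSCs differed from MEFs by -3.37 ± 0.30 (adjusted p = 1.21e-05). For all ieSCs the difference from MEFs was -1.47 ± 0.27 (adjusted p = 0.00158), a mean over ieSC groups that lay on opposite sides of the MEFs. The difference between TTF-derived ieSCs and MEFs, 0.44 ± 0.30, did not pass (adjusted p = 0.271). The dimmer Uhrf1 feature, annotated to another transcript, averaged 6.23, 4.56 and 5.58 in the same order of groups; its origin difference of 1.67 ± 0.40 passed (adjusted p = 0.0116), but its difference of -1.02 ± 0.49 between MEF-derived ieSCs and MEFs did not (adjusted p = 0.126). Values of that feature in MEF-derived ieSCs lay near or below 5.02, the highest 40th percentile of any array, where a difference depends on the array's floor. In whole-culture RNA, fewer cells expressing a gene and less of its RNA per cell cannot be told apart, here and below.

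Dnmt1, which copies methylation onto new strands, followed the same order with a smaller range. Its levels were 10.55, 10.45, 10.69 and 10.62 in TTF-derived ieSCs, 9.60, 9.42, 9.83 and 9.92 in MEF-derived ieSCs, and 10.43 and 10.40 in MEFs. The MEF-derived arrays lay below all the others. TTF-derived ieSCs were higher than MEF-derived ieSCs by 0.89 ± 0.14 (1.85-fold, adjusted p = 0.0011), and MEF-derived ieSCs differed from MEFs by -0.72 ± 0.17 (adjusted p = 0.00646). Between TTF-derived ieSCs and MEFs the difference was 0.16 ± 0.17 (adjusted p = 0.489).

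Of the methyltransferases that set new methylation, Dnmt3a was the brighter feature and the less variable one within groups. Its levels were 12.25, 12.28, 12.26 and 12.38 in TTF-derived ieSCs, 11.80, 11.93, 11.91 and 11.93 in MEF-derived ieSCs, and 12.39 and 12.36 in MEFs. The MEF-derived arrays again lay below all the others, with a difference from MEFs of -0.48 ± 0.12 (adjusted p = 0.00737) and an origin difference of 0.40 ± 0.10 (adjusted p = 0.0104). For all 8 ieSC arrays against MEFs the Dnmt3a difference of -0.28 ± 0.11 did not pass (adjusted p = 0.0542).

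Dnmt3b was at 9.28, 9.38, 9.30 and 9.12 in TTF-derived ieSCs, 8.55, 8.48, 8.94 and 8.90 in MEF-derived ieSCs, and 8.99 and 9.04 in MEFs. The MEF arrays lay between the ieSC groups, and no comparison with MEFs passed. Only the origin difference of 0.55 ± 0.14 did (adjusted p = 0.0141). It passed on the third feature as well (0.60 ± 0.15, adjusted p = 0.0158), but not on the second (0.25 ± 0.11, adjusted p = 0.136). It was 0.35 (adjusted p = 0.0692) without MEF-derived name 1 and 0.49 (adjusted p = 0.0523) without TTF-derived name 1.

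Dnmt3l, the cofactor, ran against the other writers: it was lower in TTF-derived ieSCs. Its levels were 6.83, 6.96, 6.25 and 6.35 in TTF-derived ieSCs, 7.45, 7.51, 7.47 and 7.51 in MEF-derived ieSCs, and 7.26 and 7.11 in MEFs. TTF-derived ieSCs lay below all other arrays, and within them name 2 was 0.59 below name 1. The origin difference was -0.89 ± 0.17 (adjusted p = 0.00347). Against MEFs the TTF-derived value of -0.58 ± 0.21 passed narrowly (adjusted p = 0.0494), and it passed in 2 of 14 fits that left out an array or a name, with values from -0.88 to -0.29.

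**Figure D1:**
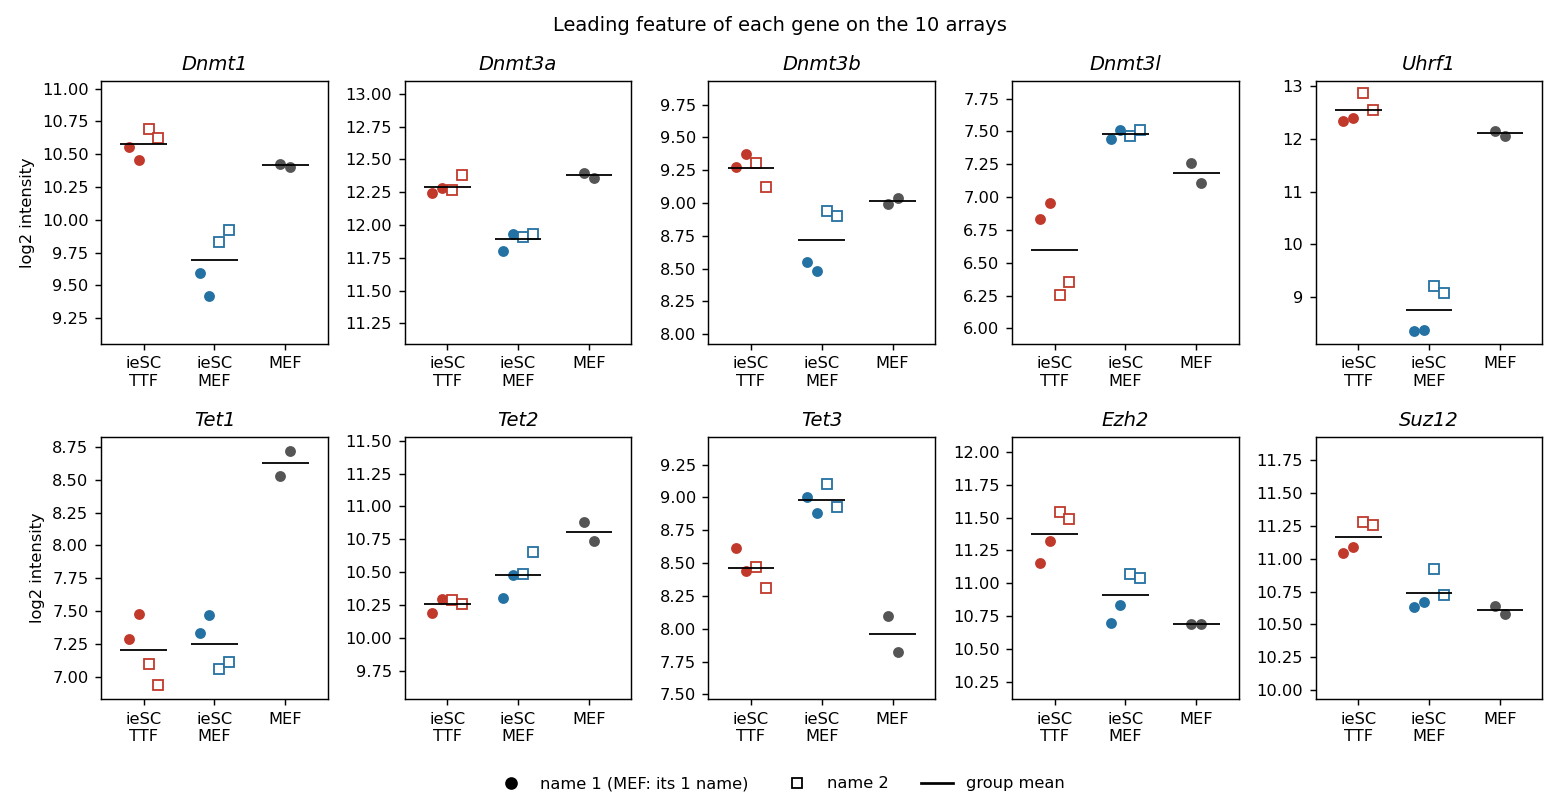
Log2 intensity of the brightest feature of each of the 10 genes on every array, with TTF-derived ieSCs, MEF-derived ieSCs and MEFs along the horizontal axis of each panel; filled circles are name 1 (or the MEF name), open squares are name 2 and bars are group means. Axes have their own ranges, wider for Uhrf1. MEF-derived ieSCs lie lowest for Uhrf1, Dnmt1, Dnmt3a and Dnmt3b, and the MEF arrays stand apart for Tet1.

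Among the erasers, Tet1 fell in ieSCs of both origins. It was at 7.29, 7.48, 7.10 and 6.94 in TTF-derived ieSCs, 7.33, 7.47, 7.06 and 7.12 in MEF-derived ieSCs, and 8.53 and 8.72 in MEFs. Every ieSC array lay more than 1 log2 unit below both MEF arrays, and the ieSC groups overlapped. All ieSCs differed from MEFs by -1.40 ± 0.20 (2.64-fold lower, adjusted p = 0.000281), TTF-derived ieSCs by -1.42 ± 0.22 (adjusted p = 0.0005) and MEF-derived ieSCs by -1.38 ± 0.22 (adjusted p = 0.000536). The 2 ieSC comparisons share the same MEF arrays and are not independent. Both other Tet1 features passed in all 3 comparisons, with all-ieSC differences of -0.84 ± 0.25 (adjusted p = 0.0259) and -1.06 ± 0.21 (adjusted p = 0.00315). The origin difference of -0.04 ± 0.18 did not pass (adjusted p = 0.882).

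Tet2 differed in the same direction by less. Its levels were 10.19, 10.30, 10.28 and 10.26 in TTF-derived ieSCs, 10.30, 10.48, 10.48 and 10.66 in MEF-derived ieSCs, and 10.88 and 10.74 in MEFs. No ieSC array reached the MEF arrays. TTF-derived ieSCs fell by 0.55 (SE 0.16, adjusted p = 0.0195) and all ieSCs by 0.44 (SE 0.15, adjusted p = 0.0327), while the MEF-derived difference of -0.33 ± 0.16 did not pass (adjusted p = 0.12). The other Tet2 features had all-ieSC differences of -0.28 ± 0.15 and -0.48 ± 0.31, and neither passed (adjusted p = 0.173 and 0.27). Without MEF array a, the call ended for all ieSCs (-0.37, adjusted p = 0.102) and for TTF-derived ieSCs (-0.48, adjusted p = 0.0605), and without TTF-derived 2a or 2b or MEF-derived 2a it ended for all ieSCs, with a highest adjusted p of 0.102 over the left-out arrays and names.

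Tet3, in contrast, rose. It was at 8.62, 8.44, 8.47 and 8.31 in TTF-derived ieSCs, 9.003, 8.88, 9.11 and 8.92 in MEF-derived ieSCs, and 8.09 and 7.82 in MEFs, with no overlap between any of the groups. All ieSCs exceeded MEFs by 0.76 ± 0.18 (1.69-fold, adjusted p = 0.00646) and MEF-derived ieSCs by 1.02 ± 0.20 (adjusted p = 0.00202), and the TTF-derived difference of 0.50 ± 0.20 did not pass (adjusted p = 0.0666). The second feature passed for both origins, at 0.89 ± 0.24 in TTF-derived (adjusted p = 0.016) and 0.78 ± 0.24 in MEF-derived ieSCs (adjusted p = 0.0252), and the third had 0.63 ± 0.31 for all ieSCs (adjusted p = 0.146). The features disagreed on origin: it was -0.52 ± 0.16 on the brightest (adjusted p = 0.0323), against 0.11 ± 0.19 on the second (adjusted p = 0.759) and 0.31 ± 0.28 on the third (adjusted p = 0.491). That origin difference also passed in only 6 of 14 fits without an array or a name, with a highest adjusted p of 0.0818.

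**Figure D2:**
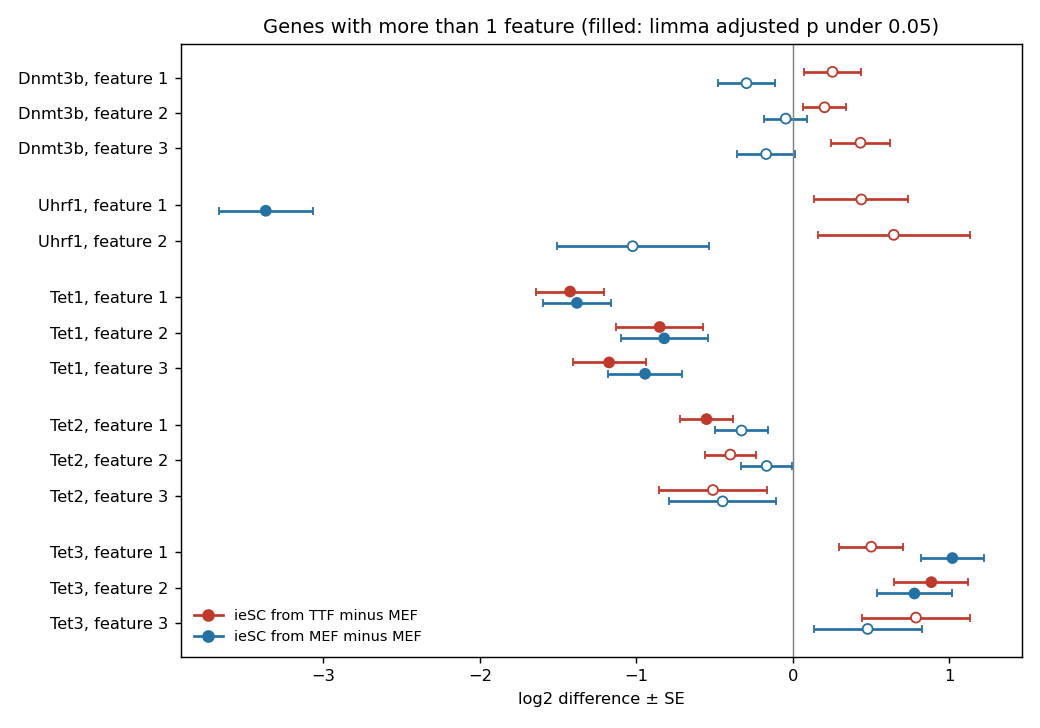
Log2 difference from MEFs (horizontal axis, ± SE) for each feature of the 5 genes with more than 1, ordered from the brightest (feature 1) downward; red is TTF-derived and blue MEF-derived ieSCs, and filled points passed at an adjusted p under 0.05 over all features. All 3 Tet1 features are lower in both ieSC groups, and all 3 Tet3 features lie above 0.

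The PRC2 subunits were highest in TTF-derived ieSCs. Ezh2, the histone methyltransferase, was at 11.15, 11.32, 11.54 and 11.49 in TTF-derived ieSCs, 10.70, 10.84, 11.07 and 11.04 in MEF-derived ieSCs, and 10.69 on each MEF array. TTF-derived ieSCs rose over MEFs by 0.69 ± 0.17 (1.61-fold, adjusted p = 0.00918), and the MEF-derived difference was 0.22 ± 0.17 (adjusted p = 0.323). The origin difference was 0.47 ± 0.14 (adjusted p = 0.0273), with name 2 above name 1 by 0.28 in TTF-derived and 0.29 in MEF-derived ieSCs. Leaving out TTF-derived 2a, 1b or 2b, TTF-derived name 2 or MEF-derived name 1 ended the origin call, with values of 0.32 to 0.47 and adjusted p of 0.0512 to 0.134. For all ieSCs the difference of 0.45 ± 0.16 passed by a small margin (adjusted p = 0.0373), and in 4 of 14 fits without an array or a name. Scored over all features in place of genes, it did not pass (adjusted p = 0.0505).

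Suz12, the scaffold subunit, followed Ezh2. Its levels were 11.04, 11.09, 11.28 and 11.26 in TTF-derived ieSCs, 10.63, 10.67, 10.93 and 10.72 in MEF-derived ieSCs, and 10.64 and 10.58 in MEFs. TTF-derived arrays lay above all others, and the MEF-derived and MEF arrays overlapped. TTF-derived ieSCs rose over MEFs by 0.56 ± 0.15 (adjusted p = 0.0116), the MEF-derived difference was 0.13 ± 0.15 (adjusted p = 0.498), and the origin difference was 0.43 ± 0.12 (adjusted p = 0.0198). Without MEF-derived name 1 the origin difference was 0.34 (adjusted p = 0.0957) and without TTF-derived name 2 it was 0.33 (adjusted p = 0.0869).

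**Figure D3:**
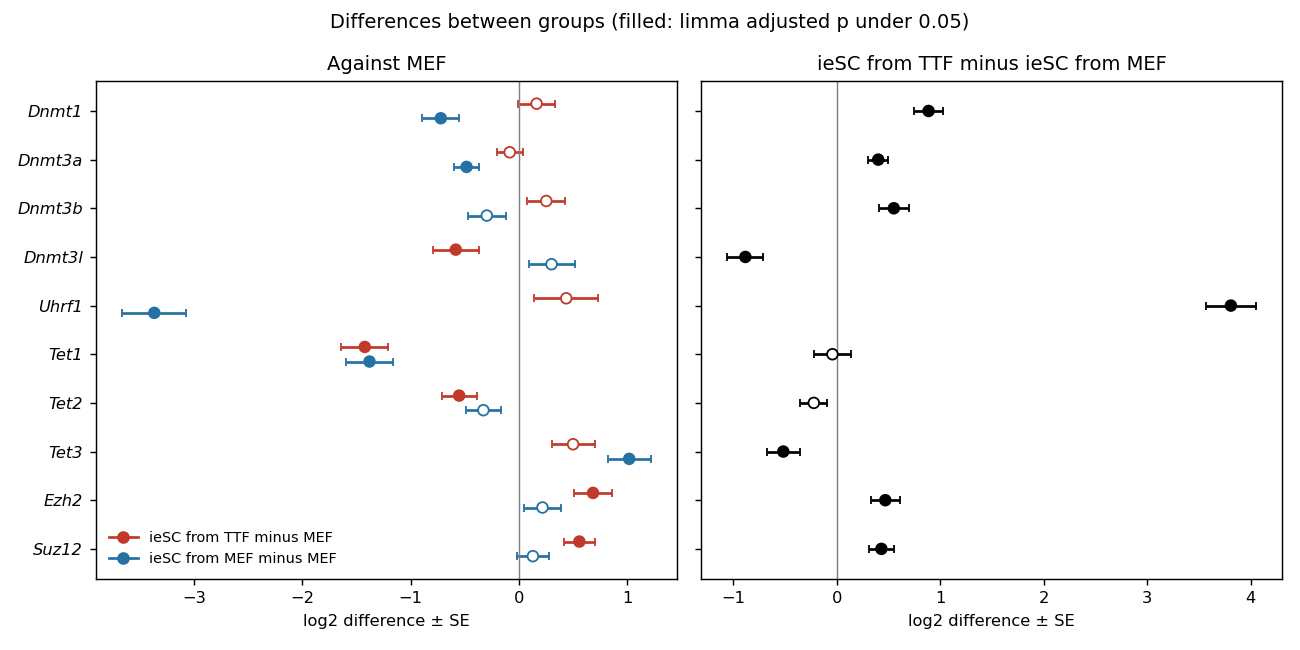
Log2 differences ± SE for the 10 genes: on the left, TTF-derived (red) and MEF-derived (blue) ieSCs against the same MEF arrays, and on the right, TTF-derived minus MEF-derived ieSCs. Filled points passed at an adjusted p under 0.05, and Uhrf1 has the longest distance from 0 on both sides.

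Counted over genes, all ieSCs against MEFs gave 2 members higher (Tet3 and Ezh2), where 25.9% of all 16650 genes were higher, and 3 lower (Uhrf1, Tet1 and Tet2), where 23.6% of all genes were lower. TTF-derived ieSCs had 2 members higher (Ezh2 and Suz12; 23.3% of all genes) and 3 lower (Dnmt3l, Tet1 and Tet2; 21.9%). MEF-derived ieSCs had 1 higher (Tet3; 27.2%) and 4 lower (Dnmt1, Dnmt3a, Uhrf1 and Tet1; 24%). With 10 members these shares lie near those of all genes. Between the origins 6 members were higher in TTF-derived ieSCs (16.8% of all genes) and 2 were lower (Dnmt3l and Tet3; 19.3%), and the median difference of the members was 0.41, against -0.05 for all genes tested.

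Counted over features, 7 of 19 passed for all ieSCs against MEFs (39.7% of all 42617 features tested), 7 for TTF-derived ieSCs (35.5%), 8 for MEF-derived ieSCs (41.5%) and 10 between the origins (28.7%). When the arrays of each name were averaged before the fit, so that a name counted once, 7 of the 40 member comparisons passed, against 23 with arrays as measured. Those that passed were the falls of Tet1 in all 3 comparisons with MEFs, the rise of Tet3 in all ieSCs and in MEF-derived ieSCs, the fall of Uhrf1 in MEF-derived ieSCs and its origin difference.

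The origin split of Uhrf1 and Dnmt1 ran beside that of genes used in DNA replication and mitosis. Of 27 tested genes of an S phase and mitosis list, 23 were higher and 2 were lower in TTF-derived than in MEF-derived ieSCs. The median difference of the 27 was 1.74. The 2 that were lower were Ccne1 (-0.92 ± 0.13, limma adjusted p = 0.000541) and Rrm1 (-0.46 ± 0.12, adjusted p = 0.0151). Rrm1 was named after its values were seen. Of all genes, 16.8% were higher and 19.3% lower. Against MEFs, 8 of the 27 were higher and 3 lower in TTF-derived ieSCs (median 0.39), against 23.3% and 21.9% of all genes. In MEF-derived ieSCs 1 was higher and 23 were lower (median -1.38), against 27.2% and 24% of all genes. The mean level of the list was 11.98, 11.97, 12.25 and 12.26 on TTF-derived arrays, 9.82, 9.81, 9.90 and 9.98 on MEF-derived arrays, and 11.82 on each MEF array. Mki67, a marker of cycling cells, averaged 13.87, 6.49 and 13.09 in the same order of groups, and Top2a, the topoisomerase that untangles chromosomes before division, 11.28, 5.45 and 10.26. Cdkn2a and Cdkn2b, the genes of the INK4 locus, averaged 4.33 and 3.73 in TTF-derived ieSCs, 16.70 and 15.33 in MEF-derived ieSCs, and 13.85 and 13.23 in MEFs. All TTF-derived values of both genes lay below 4.99, the lowest 40th percentile of any array, where a log2 difference is not a ratio of transcript amounts. Whether PRC2 acts on this locus in these cells was not tested. Whether the share of dividing cells accounts for the origin differences of the members was not tested.

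**Figure D4:**
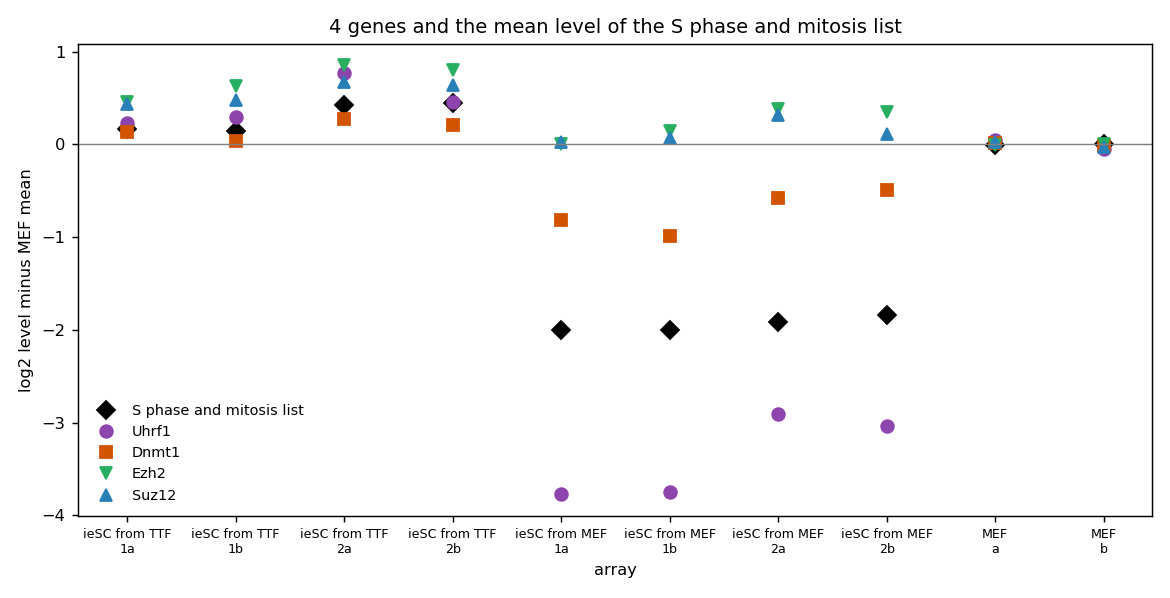
Log2 level on each array minus the mean of the MEF arrays, for Uhrf1, Dnmt1, Ezh2, Suz12 and the mean of the 27 S phase and mitosis genes (black diamonds). On MEF-derived ieSC arrays the list lies near -2 and Uhrf1 between -3.77 and -2.91, Dnmt1 lies between -0.99 and -0.49, and Ezh2 and Suz12 lie at or above 0.

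Among proteins that read methylation or work beside Dnmt1, the shares that passed in all ieSCs lay near those of all genes. Of 15 tested, 4 were higher (Zbtb33, Zbtb38, Mbd1 and Mbd2) and 3 lower (Cdca7, Zbtb4 and Mbd3) in all ieSCs. Of all genes, 25.9% were higher and 23.6% lower. The median of the list was -0.03 against 0.09 for all genes. The 3 Mbd genes are named here after their values were seen. Cdca7 and Hells, which form a nucleosome remodeller needed for DNA methylation, followed Uhrf1 by origin: Cdca7 averaged 10.78 ± 0.11 and 8.26 ± 0.14 in TTF-derived and MEF-derived ieSCs (SD, n = 4 each) and 10.64 in MEFs, and Hells averaged 9.07, 6.93 and 8.27. Their origin differences were 2.52 ± 0.13 (adjusted p = 1.3e-06) and 2.14 ± 0.22 (adjusted p = 8.19e-05). Uhrf2, the paralogue of Uhrf1, differed by 0.69 ± 0.11 (adjusted p = 0.000964). Zbtb33 (also called Kaiso) and Zbtb38, zinc finger proteins that bind methylated DNA, rose in all ieSCs by 0.74 ± 0.11 (adjusted p = 0.000307) and 1.12 ± 0.22 (adjusted p = 0.00199), and the related Zbtb4 fell by 1.03 on its brightest feature (adjusted p = 0.000314), although its 3 features ran from -1.03 to 0.12.

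Of 9 tested genes that act beside or after Tet oxidation, 4 were higher (Tdg, Smug1, Ung and Ogt; 25.9% of all genes) and 1 was lower (Neil2; 23.6%) in all ieSCs, with a median of 0.18 (Tdg was named after its values were seen). Smug1, which removes uracil and hydroxymethyluracil, rose by 1.23 ± 0.11 (adjusted p = 1.17e-05), and Ung, a uracil glycosylase, rose by 1.68 ± 0.29 (adjusted p = 0.00106, but 0.0529 with the arrays of each name averaged). Neil2, a glycosylase for oxidised bases, averaged 4.52 in TTF-derived and 4.43 in MEF-derived ieSCs, levels at the dim end, against 7.60 in MEFs. Ogt, the sugar transferase that binds Tet proteins, rose by 0.38 on its brightest feature, but its other feature was at -0.50, and the brightest no longer passed without MEF array a (0.34, adjusted p = 0.0534) or with the arrays of each name averaged (adjusted p = 0.0828). The isocitrate dehydrogenases, which make the cosubstrate of Tet enzymes, split by origin in opposite directions: Idh2 by 1.37 ± 0.17 (adjusted p = 0.000226) and Idh1 by -1.35 ± 0.23 (adjusted p = 0.00171). With the arrays of each name averaged, the call for Idh1 ended (adjusted p = 0.0795).

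On their brightest features, the other PRC2 subunits differed from MEFs in all ieSCs by values from -5.01 (Epop) to 0.65 (Mtf2). Only Epop and Phf19 lay beyond 1 log2 unit on those features. Over all their features, the differences ran from 0.52 to 1.16 for Ezh1 and from 0.34 to 1.04 for Rbbp4. Of 10 tested, 3 were higher (Mtf2, Ezh1 and Aebp2) and 2 lower (Epop and Phf19) in all ieSCs, with a median of 0.28. Of all genes, 25.9% were higher and 23.6% lower. Aebp2 was named after its values were seen. Epop, an accessory subunit that links PRC2 to elongin, was at 5.64, 5.59, 4.26 and 5.18 in TTF-derived ieSCs, 3.83, 4.53, 4.10 and 4.98 in MEF-derived ieSCs, and 9.81 and 9.75 in MEFs. Most of its ieSC values lay at the dim end of the array, so the difference of -5.01 ± 0.60 (adjusted p = 9.6e-05) is not a ratio of transcript amounts. Phf19, a Polycomb-like protein that brings PRC2 to chromatin, fell by 2.59 (SE 0.49, adjusted p = 0.00191), while the Polycomb-like Mtf2 rose by 0.65 ± 0.13 (adjusted p = 0.00204). Ezh1, the alternative catalytic subunit, rose by 0.52 ± 0.14 (adjusted p = 0.0126) and was lower in TTF-derived than in MEF-derived ieSCs by 0.41 on the log2 scale (-0.41 ± 0.13, adjusted p = 0.0317), where Ezh2 was higher. Between the origins 16.8% of all genes were higher and 19.3% lower. Of the 10 subunits, 1 was higher (Mtf2, 0.33 ± 0.11, adjusted p = 0.0474) and 1 was lower (Ezh1). Both calls were narrow: that of Mtf2 held only without TTF-derived 1a or TTF-derived name 1 among the 14 fits, with adjusted p of 0.0529 to 0.115 in the others, and that of Ezh1 ended without TTF-derived 2a, MEF-derived 1b, 2a or 2b, or either MEF-derived name (0.0532 to 0.0735). With the arrays of each name averaged, neither passed (adjusted p = 0.122 for Mtf2 and 0.0783 for Ezh1).

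In Polycomb repressive complex 1 (PRC1), which ubiquitinates histone H2A, 6 of 19 tested subunits were higher and 3 lower (Rnf2, Rybp and Kdm2b) in all ieSCs. Their median was 0.16, and of all genes 25.9% were higher and 23.6% lower. Between the origins 7 were higher and 0 lower in TTF-derived ieSCs (median 0.22), against 16.8% and 19.3% of all genes. Rybp and Kdm2b were named after their values were seen, and the features of Kdm2b ran from -0.36 to 0.10. Pcgf5, a ring finger subunit of variant PRC1, rose by 2.14 ± 0.11 in all ieSCs (adjusted p = 2.97e-07), with 1.82 to 2.14 over its 3 features. L3mbtl2, a histone-binding subunit of variant PRC1, rose by 1.55 ± 0.13 (adjusted p = 7.02e-06), and Yaf2, which takes the place of Rybp, by 0.99 ± 0.12 (adjusted p = 0.000128). The catalytic subunit Rnf2 fell by 0.97 (SE 0.12, adjusted p = 9.37e-05). The origin differences were widest for Cbx2 (1.04 ± 0.14, adjusted p = 0.000491) and Cbx6 (1.03 ± 0.10, adjusted p = 6.04e-05), chromodomain subunits that bind trimethylated lysine 27, followed by Pcgf5 (1.00 ± 0.10, adjusted p = 5.34e-05) and Pcgf6 (0.59 ± 0.13, adjusted p = 0.00673), whose call ended with the arrays of each name averaged (adjusted p = 0.0735).

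**Figure D5:**
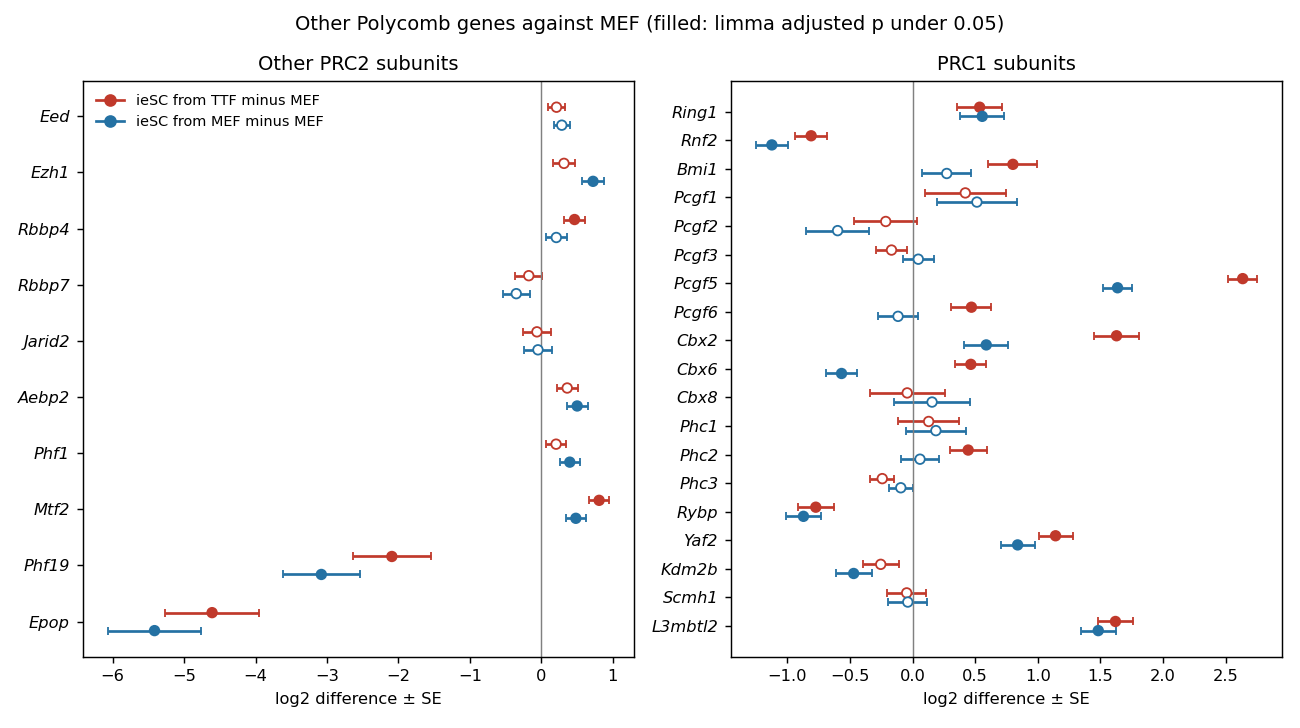
Log2 differences from MEFs ± SE of the 10 other PRC2 subunits (left) and of the 19 tested PRC1 subunits (right) in TTF-derived (red) and MEF-derived (blue) ieSCs; filled points passed at an adjusted p under 0.05. Epop and Phf19 lie furthest below 0, and Pcgf5 lies furthest above 0.

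Genes whose array pattern lay closest to that of each member were found by the root mean square (RMS) difference between array values, each gene centred on its own mean over the 10 arrays. Uhrf1 was closest to Ticrr (RMS difference 0.18) and Melk (0.23), against a spread of 1.82 in Uhrf1 itself. The closest patterns to Dnmt1 were those of Nrm (0.08) and Asxl1 (0.09), to Tet1 those of Gaa (0.08) and Apbb2 (0.10), and to Tet3 those of Pld1 (0.10) and Nat2 (0.11). For Ezh2 they were Amd2 (0.06) and Taf4 (0.07), and for Suz12 Birc2 (0.06) and Ppat (0.06). Dnmt3a lay closest to Srsf5 and Fbxo3 (0.05 each), Dnmt3b to Zkscan17 (0.09) and Gtpbp6 (0.10), Dnmt3l to Sms (0.09) and Tmem254a (0.12), and Tet2 to Cggbp1 (0.07) and Hivep2 (0.08). The 10 arrays share groups and names, so these distances are descriptions.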

How the data were processed

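RNA of 8 ieSC and 2 MEF samples was hybridised to single-colour mouse arrays of 62976 features. The authors deposited the values as log2 intensity, and limma, with no version, is the only tool in the submitters' processing notes; no source used here names a background correction. Sorted values of any 2 arrays differed by at most 0.0379 above the 40th percentile, the pattern quantile normalization leaves, so a change in total mRNA cannot be seen. Depth has no counterpart on arrays, and the number of arrays limits the precision.

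Gene symbols came from the platform annotation: 31465 features had 1 symbol, 0 had several and 31511 had none. By accession, 29036 matched RefSeq (GRCm38.p6) and 3282 symbols were updated. Testing was limited to features that exceeded the 40th percentile on 2 or more arrays, and the kept feature with the highest mean stood for its gene. The 16650 genes were fitted with limma 3.58.1 (R 4.3.3, statmod 1.5.0), with arrays of a name as a random block (consensus correlation 0.606), and the Benjamini-Hochberg adjustment ran over all of them, with an adjusted p of 0.05 as the threshold. A second fit covered all 42617 kept features. The same code was tested on simulated data. Pearson correlations between arrays were 0.990 to 0.997 within a name, 0.988 to 0.990 between names of a group, 0.968 to 0.975 between ieSC origins and 0.926 to 0.941 between ieSC and MEF arrays.

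Named genes were the members, up to 4 genes of each other list by smallest p in all ieSCs against MEFs and up to 4 by smallest p between the origins, every gene of lists of 2, and the 2 closest patterns to each member. Names outside that rule are marked as such. Members and lists were chosen with earlier results of these data known. The alternatives were averaging the arrays of a name, no block, other filters, other features for a gene, other scalings, a floor for dim values, another variance prior, terms for the sample code and the name number, and leaving out arrays or names.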

Additional observations from a re-analysis of the deposited data

Results flagged for a closer look

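The difference from MEFs was not the same in ieSCs of both origins for 8 members, by the limma comparison of TTF-derived with MEF-derived ieSCs. No unconverted TTF array was analysed here, so conversion and fibroblast source cannot be told apart in these values. Only the TTFs are named as female, so sex cannot be separated from source either. Uhrf1 stood apart by 3.81 log2 units and Dnmt1 by 0.885, both higher in TTF-derived ieSCs. Dnmt3b (0.549), Ezh2 (0.467), Suz12 (0.429) and Dnmt3a (0.399) were also higher in TTF-derived ieSCs by smaller amounts. Dnmt3l (-0.885) and Tet3 (-0.519) were lower in TTF-derived than in MEF-derived ieSCs. No member had an array that stood apart from the other 3 of its ieSC group by Dixon's test, and the MEF group was too small for it. Arrays come in pairs by name, so this test cannot show a name that stood apart. In TTF-derived ieSCs, for example, name 2 of Dnmt3l was 0.59 below name 1.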

How the results depend on the processing

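Over the alternatives, 895 values of the members kept their direction and side of the threshold, 73 no longer passed, 29 newly passed and 13 changed sign; for genes of the other lists the numbers were 1343, 45, 30 and 4. Averaging the arrays of a name moved the most. Genes higher went to 2737 for all ieSCs, 2334 for TTF-derived ieSCs, 2948 for MEF-derived ieSCs and 1204 between the origins, where 1217 were lower, against 4314, 3872, 4527, 2789 and 3209. With names averaged, members higher numbered 1 for all ieSCs, 0 for TTF-derived ieSCs and 1 between the origins, members lower numbered 1, 1, 2 (MEF-derived) and 0 (origins), and member features that passed numbered 4 in TTF-derived ieSCs and 2 between the origins. Without the block, 12 member features passed for all ieSCs and 12 for TTF-derived ieSCs. Cyclic loess gave 1 member higher and 5 lower for all ieSCs and set Suz12 in MEF-derived ieSCs at -0.0039; it also took the median of all genes for all ieSCs to -0.01, against 0.09. With the feature of median level, 1 member was lower for all ieSCs and 1 between the origins, and Dnmt3b became 0.0793 and Ogt -0.50 for all ieSCs, while Tet3 became 0.11 and Brdt -0.20 between the origins. With the mean of a gene's features, 1 member was lower between the origins, and Dnmt3b became 0.0632 and Ogt -0.0582 for all ieSCs. The cause of these shifts was not tested.

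With the replicate block on the sample code, 1 member (Tet3) was higher for all ieSCs, and Ezh2 no longer passed (limma adjusted p = 0.0537). With the block on the name number, 6 members were higher and 2 lower between the origins. Same-numbered names of the 2 origins deviated together with a correlation of 0.297, but the 2 numbers join cells of different sources, so no pairing was taken from them. Leaving out an array or a name gave 1 to 3 members higher for all ieSCs, 1 to 3 lower for TTF-derived ieSCs (1 without MEF array a), 1 to 2 higher for MEF-derived ieSCs (2 without TTF-derived name 1), and 3 to 6 higher and 1 to 2 lower between the origins, with 5 to 10 features. The lowest of these, 3 members higher and 5 features, came without MEF-derived name 1. The ranges that crossed 0 were those of Dnmt3b (-0.12 to 0.0794), Dnmt3l (-0.29 to 0.0079) and Kdm6a (-0.25 to 0.0906) for all ieSCs and of Tet1 between the origins (-0.23 to 0.14). Tet1 in the 3 comparisons with MEFs, Tet3 in all ieSCs and in MEF-derived ieSCs, and Uhrf1 between the origins passed under every alternative run. Uhrf1 in MEF-derived ieSCs passed under all but the feature of median level (-1.02, adjusted p = 0.0961). With 2 MEF arrays of 1 name, the spread between MEF names was taken from the ieSC names, and values near the 40th percentile lie at the dim end, where a log2 difference is not a ratio of transcript amounts.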

Other observations

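The demethylases of lysine 27 on histone H3, which undo the mark of PRC2, differed by origin in 1 of 2 genes. The sample names call the TTFs female and give no sex for the MEFs, so sex and origin cannot be told apart here. Kdm6a was at 9.53, 9.47, 9.65 and 9.93 in TTF-derived ieSCs (1a, 1b, 2a, 2b), 8.27, 8.57, 9.01 and 9.19 in MEF-derived ieSCs, and 9.23 and 9.34 in MEFs, with an origin difference of 0.88 ± 0.24 (adjusted p = 0.0188). It was 0.54 without MEF-derived name 1 (adjusted p = 0.0637) and 0.73 without TTF-derived name 2 (adjusted p = 0.0767), and it did not pass with the arrays of each name averaged (adjusted p = 0.121). Kdm6b averaged 12.29, 11.97 and 12.39 in the same order of groups, and no comparison passed.

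Of 15 germline genes whose promoters are methylated in somatic cells, 10 lay below the filter in every group and 5 were tested. Taf7l, named after its values were seen, was the brightest of these, at 10.97, 10.69 and 11.17 in TTF-derived ieSCs, MEF-derived ieSCs and MEFs, and no comparison passed. In all ieSCs 1 of the 5 was higher and 1 lower (25.9% and 23.6% of all genes), with a median of -0.34. Brdt, a bromodomain protein of spermatocytes, averaged 8.66 ± 0.30 in TTF-derived and 8.27 ± 0.21 in MEF-derived ieSCs (SD, n = 4 each), against 7.68 in MEFs, a difference of 0.79 ± 0.20 for all ieSCs (adjusted p = 0.00884) on the brighter of its features. That call ended on its other feature (0.47, adjusted p = 0.111) and after averaging the arrays that share a name (adjusted p = 0.102). Tex11, a meiotic gene, was at 4.46, 4.91 and 5.35, near the filter, with a difference of -0.66 ± 0.24 (adjusted p = 0.0439). That call ended without MEF array a, without TTF-derived 1a, 2a or 2b or TTF-derived name 2, and without MEF-derived 2a, with adjusted p of 0.0504 to 0.13, and after averaging the arrays that share a name (adjusted p = 0.0648). Ddx4, the germ cell helicase, was at 6.82, 7.08, 6.37 and 6.32 in TTF-derived ieSCs, 8.10, 8.33, 7.93 and 8.02 in MEF-derived ieSCs, and 8.11 and 7.93 in MEFs. TTF-derived ieSCs lay below all other arrays, by -1.37 ± 0.26 against MEFs (adjusted p = 0.00218) and -1.45 ± 0.22 against MEF-derived ieSCs (adjusted p = 0.00076).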
